A study of Homo sapiens with 4 samples.

Results

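The NF-κB genes examined here are the 10 that encode subunits, inhibitors and feedback proteins of nuclear factor-κB (NF-κB): NFKB1, NFKB2, RELA and RELB, NFKBIA, NFKBIE and NFKBIZ, and TNFAIP3, BIRC3 and TRAF1. They were chosen by symbol from the 19475 gene symbols measured by RNA-seq. All 10 were found and were abundant enough to be tested, TRAF1 only through its polymer X values. The cells were of SKOV3, a long-established line of human ovarian cancer. Of the 4 libraries, 2 came from cells on a tissue culture plate (TCP), placed at day 0 by the labels, and 2 from tumor spheroids on polymer X, a functional polymer thin film made for spheroid culture, at day 8. The labels describe no genetic change or added agent in either group. They give the same medium with serum replacement for every library, whereas the methods of the study describe routine culture of SKOV3 in fetal bovine serum. Which medium the TCP cells had is therefore uncertain, and substrate and culture time cannot be told apart, since both changed. The study also placed an NF-κB response element reporter in SKOV3 cells, among reporters of several pathways. After culture on polymer X it described a signal in spheroids with the reporter of another pathway, STAT3. Its text states no separate result for the NF-κB reporter. The comparison of polymer X with TCP gives the transcript levels of the components of the NF-κB pathway.

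NF-κB is a family of dimeric transcription factors. In resting cells, dimers such as RELA with the NFKB1 product are held in the cytoplasm by IκB proteins, and stimulation by cytokines or microbial products leads the IκB kinase complex (IKK) to mark IκB for degradation, which frees the dimer to enter the nucleus. A slower branch, driven by the kinase NIK, processes the NFKB2 precursor and acts mainly through RELB. Many of the genes that NF-κB switches on encode its own subunits, inhibitors and ubiquitin-editing regulators, so the pathway limits itself. In ovarian and other carcinomas it is known as a driver of inflammatory cytokine and chemokine genes.

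The DNA upstream of these genes is shown because NF-κB binding sites in their promoters are the textbook basis of this feedback. RefSeq start sites on GRCh38.p14 were listed for 8 of the 10 genes, in 15 windows of 250 bases before the start. RELB and NFKBIE had no entry. The 10-base NF-κB consensus (GGG, a purine, any base, A or T, a pair of pyrimidines, CC, searched on both strands) occurred in 8 of the 15 windows and upstream of 6 of the 8 genes. It occurred in 5.21% of all 35116 windows of this length, and 6.28% of all genes with a window had a match in at least 1. A looser pattern, GGG, any 5 bases and CC, was found in 13 of the 15 windows and in 54.4% of all windows, so it separates little. The windows below belong to the genes whose transcripts fell most (NFKBIZ, NFKB1, TNFAIP3) and to NFKBIA and NFKB2, which changed little. They run 5′ to 3′ along the gene, and capitals mark the consensus on either strand.
NFKBIZ, outer start, chr3:101827740-101827989, plus strand: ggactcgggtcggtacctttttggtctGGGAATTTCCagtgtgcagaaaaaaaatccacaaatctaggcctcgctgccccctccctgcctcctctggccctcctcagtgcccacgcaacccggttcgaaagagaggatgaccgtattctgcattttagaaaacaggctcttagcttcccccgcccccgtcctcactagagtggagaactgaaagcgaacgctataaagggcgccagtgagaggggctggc
NFKBIZ, inner start, chr3:101849264-101849513, plus strand: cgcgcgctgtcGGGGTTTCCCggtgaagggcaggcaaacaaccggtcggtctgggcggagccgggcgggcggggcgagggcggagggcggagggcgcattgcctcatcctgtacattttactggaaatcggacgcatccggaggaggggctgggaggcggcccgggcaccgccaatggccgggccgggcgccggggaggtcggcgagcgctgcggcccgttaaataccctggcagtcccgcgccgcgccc
NFKB1, outer start, chr4:102501109-102501358, plus strand: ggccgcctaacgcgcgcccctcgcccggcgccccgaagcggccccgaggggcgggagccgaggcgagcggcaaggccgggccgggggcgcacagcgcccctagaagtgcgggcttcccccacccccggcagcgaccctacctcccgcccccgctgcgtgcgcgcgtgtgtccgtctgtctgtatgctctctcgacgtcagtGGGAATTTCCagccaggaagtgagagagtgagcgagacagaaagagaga
TNFAIP3, chr6:137867009-137867258, plus strand: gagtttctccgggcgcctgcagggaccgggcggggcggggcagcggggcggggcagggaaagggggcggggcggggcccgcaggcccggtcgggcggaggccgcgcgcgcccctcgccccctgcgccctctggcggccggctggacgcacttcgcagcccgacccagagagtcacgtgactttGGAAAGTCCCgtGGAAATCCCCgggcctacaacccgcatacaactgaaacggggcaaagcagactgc
NFKBIA, chr14:35404750-35404999, minus strand: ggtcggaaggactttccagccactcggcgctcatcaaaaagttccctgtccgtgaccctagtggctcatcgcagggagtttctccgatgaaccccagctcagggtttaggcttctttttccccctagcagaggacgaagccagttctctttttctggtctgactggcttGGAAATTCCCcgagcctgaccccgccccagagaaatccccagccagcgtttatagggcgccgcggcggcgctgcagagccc
NFKB2, innermost start, chr10:102395455-102395704, plus strand: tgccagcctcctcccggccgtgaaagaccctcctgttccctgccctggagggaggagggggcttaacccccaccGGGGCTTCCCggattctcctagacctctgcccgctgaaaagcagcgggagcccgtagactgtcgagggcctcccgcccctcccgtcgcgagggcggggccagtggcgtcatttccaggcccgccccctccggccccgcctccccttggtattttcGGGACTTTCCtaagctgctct
No match was found in the windows of RELA or TRAF1, in the inner NFKB1 window or in the outermost NFKB2 window. Only windows with a match are shown, and not all of them. The BIRC3 window, left out above, held matches 199 to 190 and 135 to 126 bases before the start. In the outer NFKBIZ window the match lay 223 to 214 bases before the start, in NFKB1 49 to 40 bases, and in NFKBIA 81 to 72 bases. TNFAIP3 had a pair of matches between 67 and 46 bases before its start. In the NFKB2 window shown, the matches lay 176 to 167 and 21 to 12 bases before the start, and a further NFKB2 window held 3 matches, 2 of which overlapped. A match in sequence does not show that NF-κB was bound there in these cells.

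**Figure D1:**
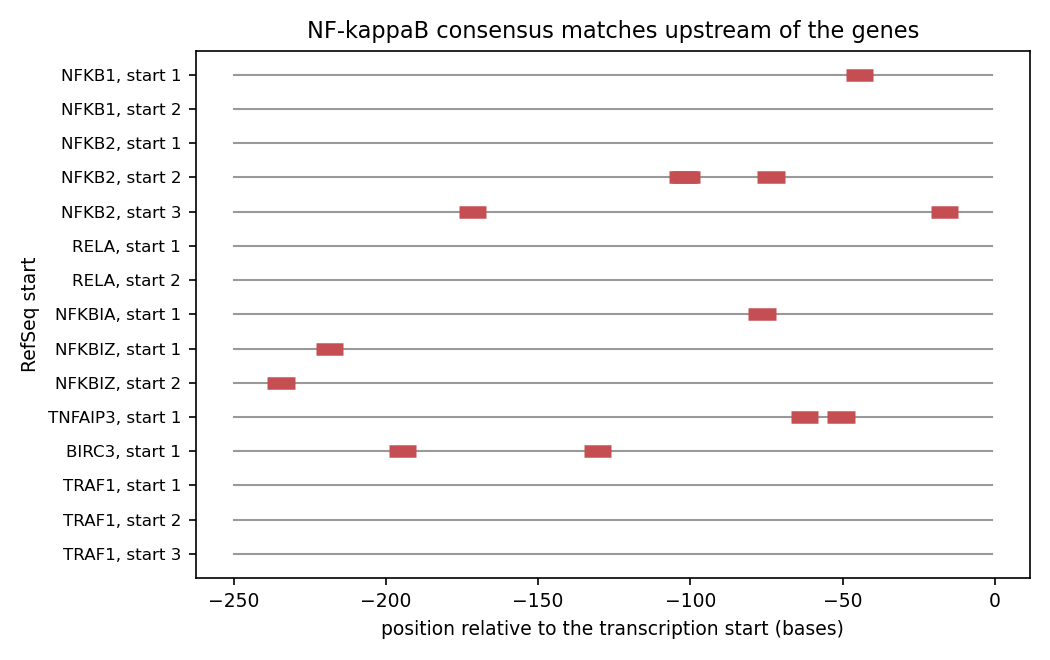
Positions of the NF-κB consensus in the 250 bases before each RefSeq start of 8 NF-κB genes, with the position in bases relative to the transcription start on the x axis and one row per start. Grey lines are the windows and red blocks the matches on either strand. Blocks are seen in 8 of the 15 windows and none for RELA or TRAF1.

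The values are FPKM, that is, tag counts adjusted for the size of the library and the length of the transcript, so levels of different genes can be set side by side. The steps between low values gave between 38403000 and 44916000 tags per library. The 11964 genes that reached an FPKM of 1 in 2 or more libraries were tested, and over them the replicates correlated at 0.998 on TCP and 0.997 on polymer X. A gene could pass this filter through a single group. Among genes named below, TRAF1, NFKBID, TLR2, ICAM1, EPCAM and DCN passed only through their polymer X values. LCN2, at 0.997 and 1.25 on TCP, reached an FPKM of 1 there only in replicate 2, so it also needed its polymer X values to pass. The p-values of all these genes do not support a rise. Nothing in the labels says that replicates were separate cultures, so each p-value measures only the spread between these libraries, which may be technical. Keratins and ERBB2, which SKOV3 cells are known to express, were present, while the epithelial markers EPCAM and KRT19 lay under an FPKM of 0.5 in both TCP libraries. These markers moved in different directions on polymer X, where ERBB2 (log2 fold change 2.13) and EPCAM (1.05) were higher and KRT8 (-0.87), KRT7 (-0.76) and KRT18 (-0.44) were lower, each with an adjusted p under 0.05 from limma. The summed FPKM of 8 leukocyte markers was 0.122 to 0.224 on TCP and 0.946 to 1.05 on polymer X, and CD3D, CD3E and MS4A1 were at 0 tags in every library. PTPRC, the general leukocyte marker, had 1 and 0 tags on TCP and 92 and 106 on polymer X. That of 6 fibroblast and endothelial markers was 0.186 to 0.243 on TCP and 7.003 to 8.243 on polymer X, most of it from DCN. The endothelial marker PECAM1 had 0 tags in both TCP libraries and 102 and 83 on polymer X. The part of these cells or markers in the results below was not tested. In such bulk libraries, fewer cells expressing a gene and less RNA per cell cannot be told apart.

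On polymer X, the NF-κB genes did not move together. NFKBIZ, a nuclear member of the IκB family, fell 4.30-fold. NFKB1 and TNFAIP3 fell about 2.10-fold and 2.06-fold, NFKBIE rose 2.41-fold, and TRAF1 rose 3.38-fold from a low level (ratios of mean FPKM, n = 2 per group). RELA, NFKB2, BIRC3 and NFKBIA changed by less than 1.2-fold in either direction. Each gene was tested on log2(FPKM + 1) with limma over all 11964 genes, and the log2 fold changes below are on that scale, where changes of genes at a low FPKM come out too small. At an adjusted p under 0.05 from limma, 5 of the 10 rose and 4 fell, where 37.4% of all tested genes rose and 43.6% fell. TRAF1, which passed the filter only through its polymer X values, is among those that rose. A gene was called when its log2 fold change was also 1 or more in size. NFKBIE was then called higher, and NFKBIZ and NFKB1 lower, so that 3 of the 10 genes were called, against 20.2% of all tested genes (10.7% higher and 9.45% lower). The polymer X and TCP values did not overlap for any of the 10 genes, as for 90.4% of all tested genes. On the log2 scale their median change was 0.12, against -0.06 over all tested genes. With 10 genes these counts are near the background, and they are not a result about the 10 genes as a group.

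**Figure D2:**
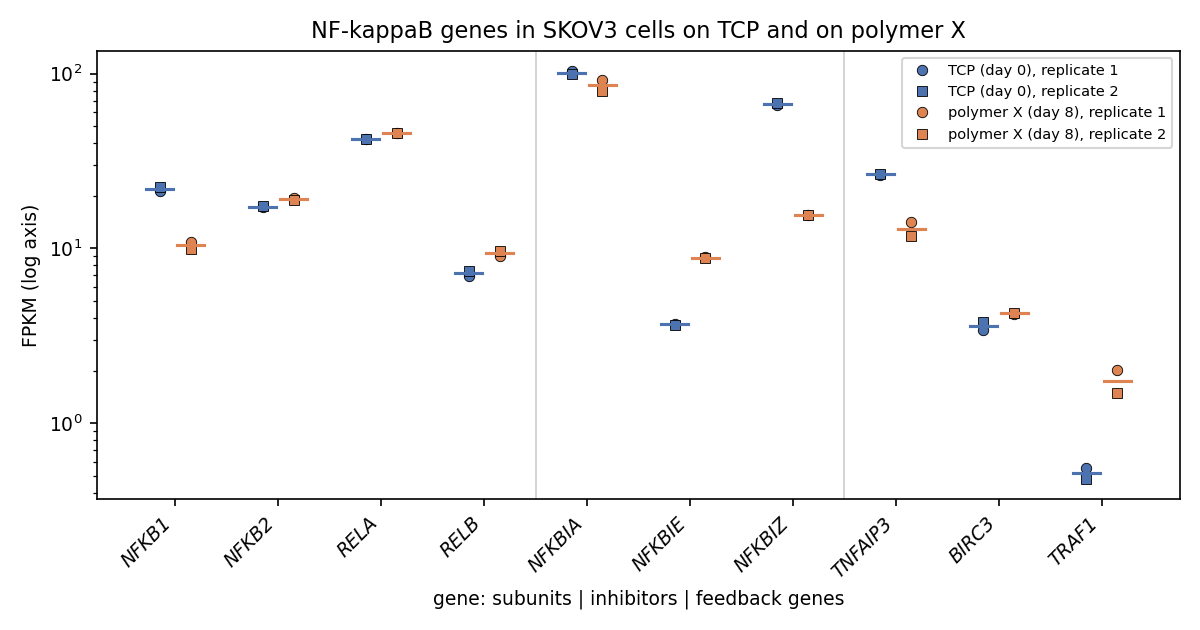
FPKM of the 10 NF-κB genes on a log axis in each of the 4 libraries, with TCP (day 0) in blue and polymer X (day 8) in orange, circles and squares for replicates 1 and 2, and horizontal lines for the mean of each group. NFKBIZ drops from 66.9 to 15.6, NFKB1 drops below NFKB2, and the polymer X points of NFKBIE and TRAF1 lie above those of TCP.

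Among the subunit genes, NFKB1 was the gene that changed most. NFKB1 encodes a precursor whose shorter product pairs with RELA and has no activation domain of its own (NM_003998, hg19 chromosome 4, 103422486 to 103538459). Its FPKM was 21.2 and 22.5 in the TCP libraries and 10.9 and 9.94 in the polymer X libraries. Both polymer X values lay well below both TCP values, and the log2 fold change was -1.003 (standard error 0.07, 95% interval -1.15 to -0.85, adjusted p = 7.1e-07 from limma). Its value lay at the minimum of 1 that was set for a call, and without TCP replicate 2 or polymer X replicate 2 it was -0.96 or -0.94, short of that minimum.

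RELA, the subunit with the strongest activation domain, had FPKM values of 42.3 and 42.4 on TCP and of 45.6 and 46.0 on polymer X (NM_001145138, chromosome 11, 65421067 to 65430443). The values were slightly higher in both polymer X libraries, with a log2 fold change of 0.11 (95% interval -0.01 to 0.23, adjusted p = 0.083 from limma). Scaling mattered for this gene, with 0.41 under quantile normalization (adjusted p = 8.2e-05 from limma) and 0.15 under median scaling (adjusted p = 0.019). NFKB2, the precursor processed in the NIK branch, measured 17.2 and 17.5 on TCP and 19.3 and 19.0 on polymer X (NM_002502, chromosome 10, 104155353 to 104162286). Its log2 fold change of 0.13 had a 95% interval from 0.01 to 0.26 and an adjusted p of 0.0498 from limma, at the edge of the threshold. With the replicate number as a block this p was 0.052, and it was between 0.06 and 0.21 with each library left out, while under quantile normalization the change was 0.32 with an adjusted p of 5.0e-04 from limma.

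RELB, the partner of the NFKB2 product, rose more clearly. It measured 6.99 and 7.44 on TCP and 9.10 and 9.66 on polymer X (NM_006509, chromosome 19, 45504707 to 45541456). Both polymer X values exceeded both TCP values, with a log2 fold change of 0.34 (95% interval 0.18 to 0.49, adjusted p = 0.0012 from limma), a ratio of 1.30 in FPKM.

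These changes altered the composition of the subunit transcripts more than their amount. The summed FPKM of NFKB1, NFKB2, RELA, RELB and REL was 92.7 and 94.9 on TCP and 88.5 and 88.6 on polymer X. REL, which encodes c-Rel, fell slightly, from 4.98 and 5.01 to 3.67 and 4.09 (log2 fold change -0.30, adjusted p = 0.0047 from limma). The share of NFKB1 in this sum went from 23.3% ± 0.632 on TCP to 11.8% ± 0.756 on polymer X (SD, n = 2). The share of RELA went from 45.2% ± 0.662 to 51.7% ± 0.297, and that of RELB from 7.69% ± 0.213 to 10.6% ± 0.436 (SD, n = 2). NFKB2 had 0.813 and 0.775 times the FPKM of NFKB1 on TCP, and 1.78 and 1.91 times on polymer X, so the order of these paralogous genes was turned around in both libraries. RELA exceeded NFKB1 by 2.00 and 1.88 times on TCP and by 4.19 and 4.63 times on polymer X. These shares and ratios are given as a description and were not tested. An exact permutation test of 2 against 2 libraries could not go below a two-sided p of 0.333.

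**Figure D3:**
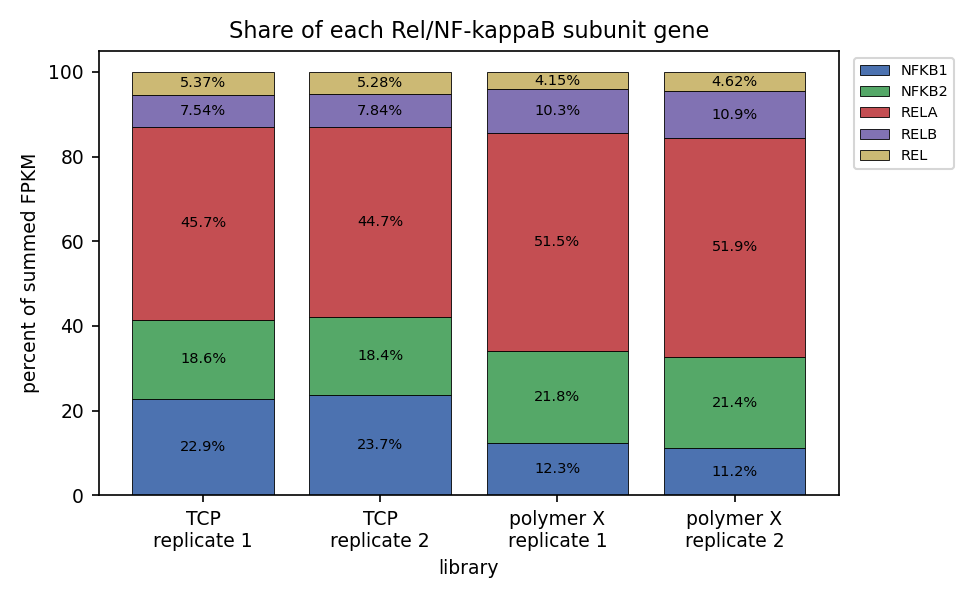
Share of each Rel/NF-κB subunit gene in the summed FPKM of the 5 genes, in percent, as 1 stacked bar per library. The NFKB1 segment is 22.9% and 23.7% on TCP and 12.3% and 11.2% on polymer X, and the RELA segment is the largest in all 4 libraries.

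The inhibitor genes went in different directions. NFKBIZ encodes IκBζ, which is itself induced by NF-κB and acts in the nucleus as a cofactor at a subset of target genes, among them IL6 and LCN2. It measured 66.2 and 67.6 FPKM on TCP and 15.6 and 15.5 on polymer X (NM_031419, chromosome 3, 101568358 to 101579869). The replicates were close in both groups, and the log2 fold change was -2.03 (standard error 0.05, 95% interval -2.16 to -1.91, adjusted p = 3.0e-09 from limma), the largest change among the 10 genes on this scale. On TCP it ranked below NFKBIA alone, and on polymer X it followed NFKBIA, RELA and NFKB2.

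NFKBIA encodes IκBα, the classical cytoplasmic inhibitor that NF-κB itself induces. It was the most abundant of the 10 transcripts in all 4 libraries, at 103 and 99.1 FPKM on TCP and 91.5 and 79.7 on polymer X (NM_020529, chromosome 14, 35870716 to 35873960). It fell by 0.24 on the log2 scale (standard error 0.07, adjusted p = 0.0115 from limma), but under quantile normalization the value was 0.072, on the other side of 0. It also missed the threshold without TCP replicate 1 (-0.21, adjusted p = 0.052 from limma) and without polymer X replicate 2 (-0.14, adjusted p = 0.074).

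NFKBIE, which encodes the related cytoplasmic inhibitor IκBε, rose from 3.70 and 3.66 to 8.95 and 8.78 FPKM (NM_004556, chromosome 6, 44225903 to 44233525). Both polymer X values lay far above both TCP values, by 1.08 on the log2 scale (95% interval 0.93 to 1.22, adjusted p = 4.3e-07 from limma). NFKBIB, the gene of IκBβ and not among the 10, went the other way, from 12.9 and 12.1 to 6.21 and 4.16 (log2 fold change -1.15, adjusted p = 2.9e-05 from limma). The ratio of NFKBIB to NFKBIE was 3.49 and 3.31 on TCP and 0.693 and 0.474 on polymer X. Without polymer X replicate 2, NFKBIB no longer reached a log2 fold change of 1 in size.

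Because NFKBIZ fell, the summed FPKM of the 3 inhibitor genes was 173 and 170 on TCP and 116 and 104 on polymer X. The ratio of this sum to that of the 4 subunit genes was 1.94 ± 0.0569 on TCP and 1.30 ± 0.0982 on polymer X (SD, n = 2). The difference of -0.64 was -0.32 when the transcripts of each gene were summed. Summing counts shared tags several times, with 6 transcripts for NFKB2 and 1 for NFKBIA, so that ratio was lower on TCP to begin with. The value of -0.32 therefore does not mean a smaller relative fall. NFKBIZ made up 38.9% ± 1.03 of the inhibitor sum on TCP and 14.2% ± 1.05 on polymer X (SD, n = 2). The sum leaves out NFKBIB, and NFKBIZ acts in the nucleus, so the ratio does not compare cytoplasmic inhibitors with subunits. The ratio of NFKBIA to RELA alone was 2.44 and 2.34 on TCP and 2.01 and 1.73 on polymer X, lower in both spheroid libraries but by less.

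Of the feedback genes, TNFAIP3 fell and TRAF1 rose. TNFAIP3 encodes a ubiquitin-editing enzyme that shuts off signaling from TNF and Toll-like receptors. Its FPKM was 26.4 and 26.8 on TCP and 14.1 and 11.8 on polymer X (NM_006290, chromosome 6, 138188325 to 138204451). The TCP replicates were nearly equal and the polymer X replicates were further apart. The log2 fold change was -0.99 (standard error 0.08, 95% interval -1.17 to -0.81, adjusted p = 2.5e-06 from limma), just short of the minimum of 1, which NFKB1 just passed. The intervals of TNFAIP3 and NFKB1 overlap over most of their width. Without polymer X replicate 1 TNFAIP3 was at -1.11 and was called.

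TRAF1, an adaptor of TNF receptors induced by NF-κB, was the least abundant of the 10 genes. It measured 0.555 and 0.480 on TCP, from 79 and 80 tags, and 2.01 and 1.49 on polymer X, from 298 and 225 tags (NM_001190947, chromosome 9, 123664671 to 123676850). Both polymer X values were above both TCP values, with a ratio of 3.38 in mean FPKM. On log2(FPKM + 1) the fold change was 0.85 (standard error 0.10, adjusted p = 4.7e-05 from limma), and with a pseudocount of 0.1 it was 1.57. Under quantile normalization it was 0.38 (adjusted p = 0.011 from limma), so that the size of the rise depended on the pseudocount and the scaling. TRAF1 reached an FPKM of 1 only on polymer X and was tested through those values, so these p-values do not support the rise.

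BIRC3 encodes an inhibitor of apoptosis protein that ubiquitinates NIK and the receptor complex. It had FPKM values of 3.40 and 3.81 on TCP and of 4.23 and 4.29 on polymer X (NM_182962, chromosome 11, 102188181 to 102210135). The groups were close, with a log2 fold change of 0.19 (95% interval 0.02 to 0.37, adjusted p = 0.0397 from limma). It missed the threshold with any library but TCP replicate 2 left out (0.13 to 0.20, adjusted p = 0.085 to 0.26 from limma), and under quantile normalization the change was 0.061. BIRC2, its paralog, was the more abundant of the pair, at 12.8 and 11.3 times the FPKM of BIRC3 on TCP and 6.48 and 6.11 times on polymer X. These paralogs share sequence, and how tags that match both were counted is not given in the sources used here.

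**Figure D4:**
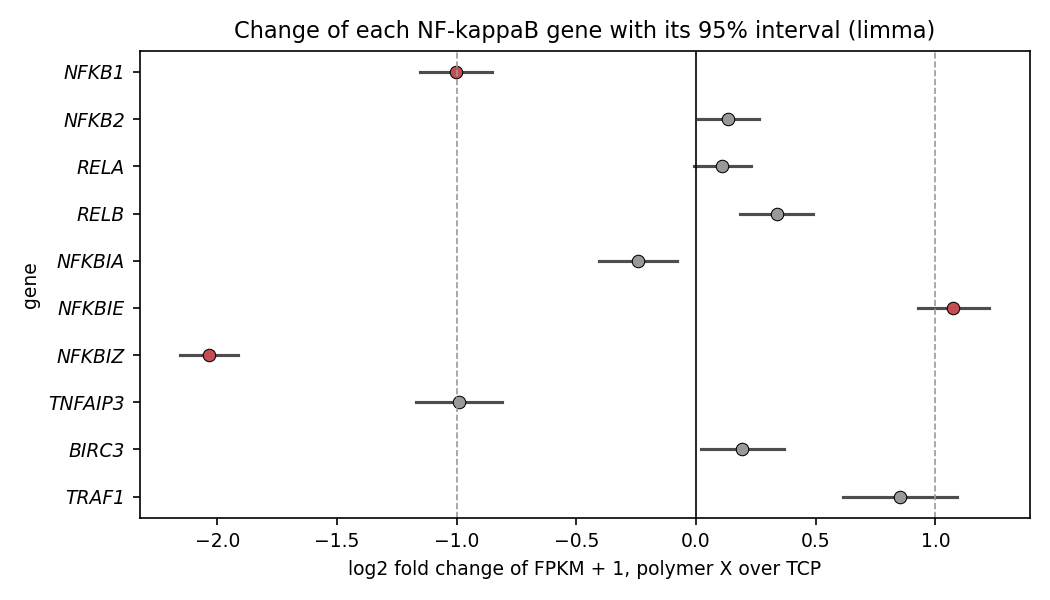
Log2 fold change of FPKM + 1, polymer X over TCP, for each of the 10 NF-κB genes (points) with the 95% interval from limma (bars). Red points passed an adjusted p under 0.05 and a log2 fold change of at least 1 in size (dashed lines). NFKB1 and TNFAIP3 lie on the dashed line at -1, and the interval of RELA includes 0.

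The listed transcripts of a gene share tags and are not independent, but they show whether a change depends on the transcript chosen. The 6 transcripts of NFKB2 had log2 fold changes from 0.13 to 0.15, the 4 of RELA from 0.10 to 0.11, and the 3 of NFKB1 from -1.003 to -1.002. Both NFKBIZ transcripts, which begin at different starts, fell alike, by 2.03 and 2.00 on the log2 scale. The 3 transcripts of TRAF1 rose by 0.83 to 0.85. BIRC3 was the exception. Its shorter transcript of 4340 bases gave 0.19 and the longer one of 6901 bases (NM_001165) gave -0.04, with FPKM values of 3.80 and 4.04 on TCP and 3.86 and 3.70 on polymer X. The longer transcript had 439 and 509 more tags than the shorter on TCP and 332 and 280 more on polymer X. If the shorter lies wholly within the longer, which the table does not show, the extra 2561 bases had an FPKM of 4.46 and 4.42 on TCP and of 3.24 and 2.69 on polymer X, lower in both spheroid libraries while the rest was higher. This difference was not tested. No other listed gene overlapped a transcript used for the 10 genes on either strand. NXPE3 overlapped the longer span of NFKBIZ by 242 bases on the same strand, outside the NFKBIZ transcript used.

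In order of level, NFKBIA stayed at the top and RELB, NFKBIE, BIRC3 and TRAF1 kept the lowest ranks in the same order, while the ranks of NFKBIZ, RELA, TNFAIP3, NFKB1 and NFKB2 changed. On TCP the order was NFKBIA, NFKBIZ, RELA, TNFAIP3, NFKB1, NFKB2, RELB, NFKBIE, BIRC3 and TRAF1, in which NFKBIE and BIRC3 did not differ beyond their spread. On polymer X it was NFKBIA, RELA, NFKB2, NFKBIZ, TNFAIP3, NFKB1, RELB, NFKBIE, BIRC3 and TRAF1, with no overlap between neighbors.

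The other genes of the pathway were taken from 6 lists with 106 genes in all, of which 88 were tested. Of these, 11 were called higher and 13 lower, and the median log2 fold change was 0.13. In the counts that follow, higher and lower mean called, and the shares over all tested genes were 10.7% and 9.45%.

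Of the 4 remaining Rel and IκB family genes, NFKBIB was lower and 0 were higher, or 1 under quantile normalization. BCL3, a nuclear IκB protein that binds dimers of the NFKB1 or NFKB2 product, went from 16.3 and 16.1 to 31.3 and 30.3 FPKM (log2 fold change 0.88, adjusted p = 5.1e-07 from limma). BCL3 had 0.247 and 0.239 times the FPKM of NFKBIZ on TCP and 2.01 and 1.95 times on polymer X, so the more abundant of these nuclear IκB genes was a different one in each condition. NFKBID, a further nuclear IκB gene, was low, at 0.798 and 0.796 on TCP and 1.16 and 1.13 on polymer X.

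Of the 12 tested kinase genes and partners, 1 was higher and 1 was lower. MAP3K14, which encodes NIK, fell from 11.8 and 11.7 to 5.32 and 5.18 FPKM (log2 fold change -1.03, adjusted p = 4.2e-07 from limma). TBKBP1, a partner of the kinase TBK1, rose from 2.05 and 2.49 to 5.50 and 6.05 (1.05, adjusted p = 3.4e-06 from limma). Both changes were close to the minimum of 1. The count of kinases called higher was 0 without TCP replicate 1, without polymer X replicate 2 and under quantile normalization, and that called lower was 0 under median scaling. Among the IKK subunits, named after their values were seen, IKBKB measured 10.3 and 10.7 on TCP and 18.4 and 20.1 on polymer X, and IKBKG 6.92 and 7.37 against 3.89 and 3.30. CHUK did not pass the filter on low values, with 0.971 and 0.892 on TCP and 0.417 and 0.547 on polymer X.

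Of the 21 tested receptor adaptors, 0 were called higher and 1 lower, while 10 rose and 7 fell at an adjusted p under 0.05 from limma. At that threshold alone, 37.4% of all tested genes rose and 43.6% fell, which is also the background for the negative regulators below. IRAK1, a kinase of the IL-1 and Toll-like receptor complex, fell from 88.9 and 90.1 to 24.4 and 24.8 FPKM (-1.82, adjusted p = 5.0e-09 from limma). Of the 8 tested receptors, 3 were higher and 1 was lower, with a median of 0.69. CD40 rose from 4.54 and 4.08 to 19.8 and 19.1 (1.95), TLR2 from 0.426 and 0.484 to 4.24 and 4.07 (1.82), and IL1R1 from 1.88 and 2.20 to 5.58 and 5.30 (1.08). TLR2 entered this count only through its polymer X values. TNFRSF12A, the receptor of TWEAK, fell from 278 and 251 to 76.9 and 68.4 (-1.85). Of the 16 tested negative regulators outside the 10 genes, TRIB3 was higher and 0 were lower, with 6 higher and 6 lower at an adjusted p under 0.05. TRIB3, which is also known as a stress-induced gene, rose from 7.57 and 7.65 to 20.3 and 19.6 (1.28). CYLD, a deubiquitinase named after its values were seen, measured 2.21 and 2.25 on TCP and 4.46 and 3.997 on polymer X, and the ratio of TNFAIP3 to CYLD was 11.9 in both TCP libraries and 3.15 and 2.94 on polymer X.

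The target genes split into those that fell and those that rose. Of the 27 tested of 37 listed, 6 were higher and 9 were lower, with a median of -0.21. The falls were led by cytokine and chemokine genes: IL6 (-3.20), CXCL2 (-2.48), CXCL8 (-2.35) and CXCL1 (-2.06), followed by the growth arrest gene GADD45B (-1.85). CXCL2 measured 152 and 148 FPKM on TCP and 26.6 and 25.3 on polymer X, and CXCL8 475 and 398 against 94.2 and 75.1. The rises were led by LCN2, which encodes a siderophore-binding protein, from 0.997 and 1.25 to 25.6 and 25.2 (3.64), and by the acute phase gene SAA1, from 4.79 and 4.25 to 35.4 and 27.7 (2.55). ICAM1, a leukocyte adhesion molecule, followed with 0.475 and 0.330 on TCP and 6.22 and 6.28 on polymer X (2.37), and passed the filter only through the latter. IL1A and IL1B rose by 2.00 and 1.94. All 10 of these had an adjusted p under 0.05 from limma, the largest being 8.4e-08. LCN2 and ICAM1 needed their polymer X values to pass the filter, so their p-values do not support the rise. The CXCL genes and SAA1 have close paralogs, so their values are uncertain. IL6 and LCN2, both known to need IκBζ for full induction, went in opposite directions. Any part of NFKBIZ in either change was not tested. The ligand genes TNF and LTB lay at or under 3 tags in all 4 libraries, so no change in them was detectable at this depth.

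**Figure D5:**
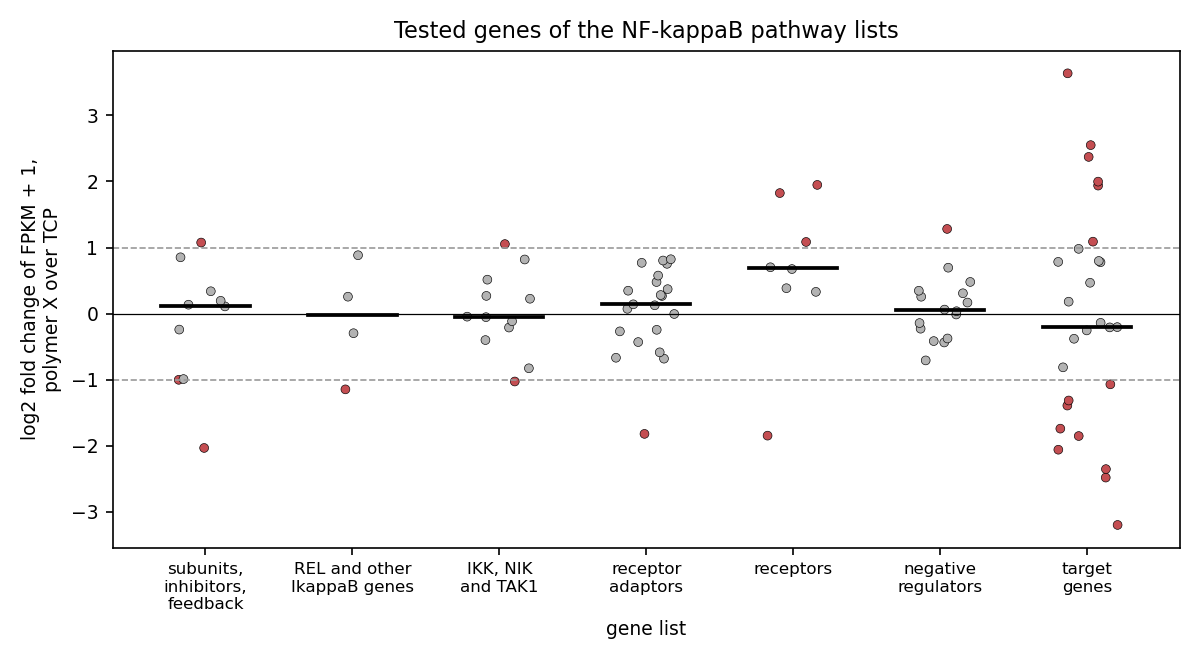
Log2 fold change of FPKM + 1, polymer X over TCP, of each tested gene (points) in the 10 NF-κB genes and in the 6 lists of other pathway genes, with black lines for medians and red for genes past both thresholds. Target genes spread from -3.20 to 3.64, and receptors have the highest median, 0.69.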

How the data were processed

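RNA-seq of SKOV3 cells was analysed in 2 TCP and 2 polymer X libraries. FPKM values per RefSeq transcript of hg19 were deposited by the authors, who used HOMER to count tags on exons of both strands. The submitters' processing notes also name STAR 2.4.0 and DESeq. The command in the file header names further libraries, which were not analysed here. Each of the 19475 symbols was represented by its transcript of highest mean FPKM (10500 had more than 1). For the test, limma 3.58.1 (R 4.3.3) was run on log2(FPKM + 1) for genes that reached an FPKM of 1 in 2 or more libraries, with its trend option, without replicate block, and with Benjamini-Hochberg adjustment over 11964 genes. Calls needed an adjusted p below 0.05 and a log2 fold change of 1 or more in size. The fit was tested on simulated data. Tags per library came from the steps of low values on transcripts under 2000 bases. The floor was 3 tags, which at 2000 bases is an FPKM of 0.0334 to 0.0391, and covers counting error only. The 10 genes and the lists were chosen with earlier results of these data known. The lists were written from general knowledge. The text names the 10 genes, all 4 of the other Rel and IκB genes, and from every other list up to 5 called genes per direction, by size of change. Other genes named were chosen after their values were seen. Alternatives were another pseudocount, other filters, 2 other scalings, the replicate block, summed transcripts, no trend, other fold minimums and each library left out. Promoters came from RefSeq on GRCh38.p14. Plots were drawn with matplotlib 3.10.9.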

Additional observations from a re-analysis of the deposited data

How the results depend on the processing

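NFKBIZ, NFKBIE, RELA, RELB, NFKB2 and BIRC3 kept their direction and their side of the fold minimum of 1 under every alternative scaling, filter, pseudocount and left-out library in which they were tested. The adjusted p of RELA was under 0.05 with limma after median scaling and quantile normalization. At a mean FPKM of 5 or more, BIRC3 and TRAF1 were not tested. Under quantile normalization NFKBIA was at 0.072 in place of -0.24, and the cause was not tested. NFKB1 and TNFAIP3 lie so close to a log2 fold change of 1 that the number of the 10 genes called lower, 2, was 1 under quantile normalization and median scaling and 3 with a pseudocount of 0.1 and with transcripts summed, where TNFAIP3 was added at -1.04 and -1.03. When single libraries were omitted it ranged from 1 to 3, and was 1 without TCP replicate 2 or polymer X replicate 2. The number called higher, 1, was 2 with a pseudocount of 0.1 and with transcripts summed, where TRAF1 was added, and stayed 1 with each library left out. Without a fold minimum 5 rose and 4 fell, and with a minimum of 2 the counts were 0 and 1. In fits without 1 library, the lone library of a condition is assumed to vary like the other condition.

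Over all genes, 1285 were higher and 1131 lower. Without a fold minimum these were 4477 and 5212, at a minimum of 2 they were 281 and 150, and with a filter at a mean FPKM of 5, which leaves fewer genes, 702 were higher. With each library left out they ranged from 1289 to 1325 and from 1053 to 1234. In the lists of other pathway genes, 11 were higher and 13 lower. Without a minimum these were 42 and 34, at a minimum of 2 they were 3 and 4, and with the filter at a mean FPKM of 5, 7 were higher. The fall of the ratio of inhibitors to subunits, -0.64, was -0.32 with transcripts summed, which counts shared tags of NFKB2 and RELA several times, and -0.52 for NFKBIA over RELA. These ratios start from different levels on TCP, so the sizes of these differences cannot be set side by side. With each library left out, the value of -0.64 ranged from -0.71 to -0.57.

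With the replicate block, the log2 fold change of NFKB1 was -1.003 and 1 of the 10 genes was higher and 2 were lower. Deviations from the group means correlated at 0.0927 between libraries of the same number, over 11964 genes. With 2 libraries per group, this single value cannot show whether libraries of the same number shared a preparation. Depth limits TNF and LTB.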

Other observations

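Among the genes outside the 10 that had a RefSeq window and were tested, 766 had the NF-κB consensus within 250 bases before a start and 8777 did not. Of the former, 88 were higher and 68 lower on polymer X (11.5% and 8.88%), and of the latter 855 and 850 (9.74% and 9.68%). The median log2 fold change was 0.017 with a match and -0.084 without. These shares are a description with no test, and the search was chosen after the changes of the 10 genes were seen.

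Several pathway genes stayed below the filter on low values and were higher in both polymer X libraries. PTGS2, which encodes the inducible cyclooxygenase, had 18 and 15 tags on TCP and 135 and 110 on polymer X. TLR5, the flagellin receptor, had 16 and 22 tags against 126 and 104, and TLR3, a receptor of double-stranded RNA, 22 and 25 against 78 and 56. MMP9, a gelatinase, had 5 and 6 tags against 40 and 61. TLR4 had 0 tags in all 4 libraries. These genes were chosen after their values were seen and were not tested.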
